A study of Mus musculus with 5 samples.

Results

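Reactive astrocyte and complement genes were examined in the hippocampus of 3-month-old mice lacking *Hdac1* in the brain. The set held 10 genes, *Gfap*, *Vim*, *Serpina3n*, *C4b*, *C3*, *Lcn2*, *Cd44*, *Osmr*, *Stat3* and *Timp1*, of the 23361 gene symbols measured, and each was found once. They were chosen as widely used markers of reactive astrocytes from general knowledge, after the higher *Gfap* level of the knockout in this same comparison was known, to ask whether other reactive genes accompanied it. Their values are therefore a description of these libraries, and they were fitted together with all other genes, but no test is read for them.

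Controls carried floxed *Hdac1* alleles without Cre (Hdac1f/f, n = 2), and *Hdac1* conditional knockout (cKO) mice carried the same alleles with Nestin-Cre (Hdac1f/f, Nestin-Cre, n = 3). The study's methods give male mice for its young group. Its results describe deletion in neurons and astrocytes, with HDAC1 still seen in microglia. No control carried Nestin-Cre alone, so deletion of *Hdac1* and presence of Cre cannot be told apart. The study counts 2 control and 3 cKO mice for these libraries, so every p-value measures the spread between single mice in small groups.

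Astrocytes respond to injury, infection and degeneration by enlarging and by raising intermediate filament genes, of which *Gfap* is the classic marker. Cytokines of the interleukin-6 family, acting through gp130 receptors and the transcription factor STAT3, drive much of this programme, and inflammatory forms add complement genes such as *C3* and *C4b*. Reactive states have been divided into genes shared by most insults (pan-reactive), genes typical of neuroinflammation (A1) and genes typical of ischaemia (A2).

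*Gfap* was higher in each cKO library than in either control, by 0.43 ± 0.11 (SE) on the log2(FPKM + 1) scale, and it was the one member that did so. *Vim* and *Serpina3n*, which usually accompany *Gfap* in reactive astrocytes, differed by less than their standard errors. *C4b* lay below both controls in each cKO library, by 0.42 ± 0.19. *Lcn2* was listed at 0 in all 3 cKO libraries. *C3*, *Cd44*, *Osmr*, *Stat3* and *Timp1* overlapped between the groups.

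FPKM scales the fragments of a gene to its transcript length in kilobases and to the mapped fragments of the library, so that levels can be set beside each other between genes. Total FPKM ranged from 565363 to 636705 per library, and 12680 to 12745 genes reached 1 FPKM. Depth was not given per library, and the steps between low values pointed to about 5140000 fragments in cKO 2 and 6310000 to 6770000 in the others. The same steps placed the libraries in 2 sets that shared them, control 1 with cKO 1 (set 1) and control 2 with cKO 2 and cKO 3 (set 2). Within a set 24.6% to 28.4% of low genes fell in one narrow ratio window, against 3.71% to 4.64% across sets. Differences within each set are given beside the overall ones, although set 1 holds 1 library of each group. *Hdac1* itself (chr4:129193348-129219957, minus strand, mm9) was at 8.95 and 13.1 FPKM in controls and at 1.95, 3.12 and 3.37 FPKM in cKO libraries, so the labels fit the targeted gene. Its difference was -1.66 ± 0.21 (limma SE, adjusted p = 0.219). With the set of libraries as a block the adjusted limma p was 0.00389, so only a call by adjusted p changes. That adjusted p reached 0.825 in another alternative.

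**Figure D1:**
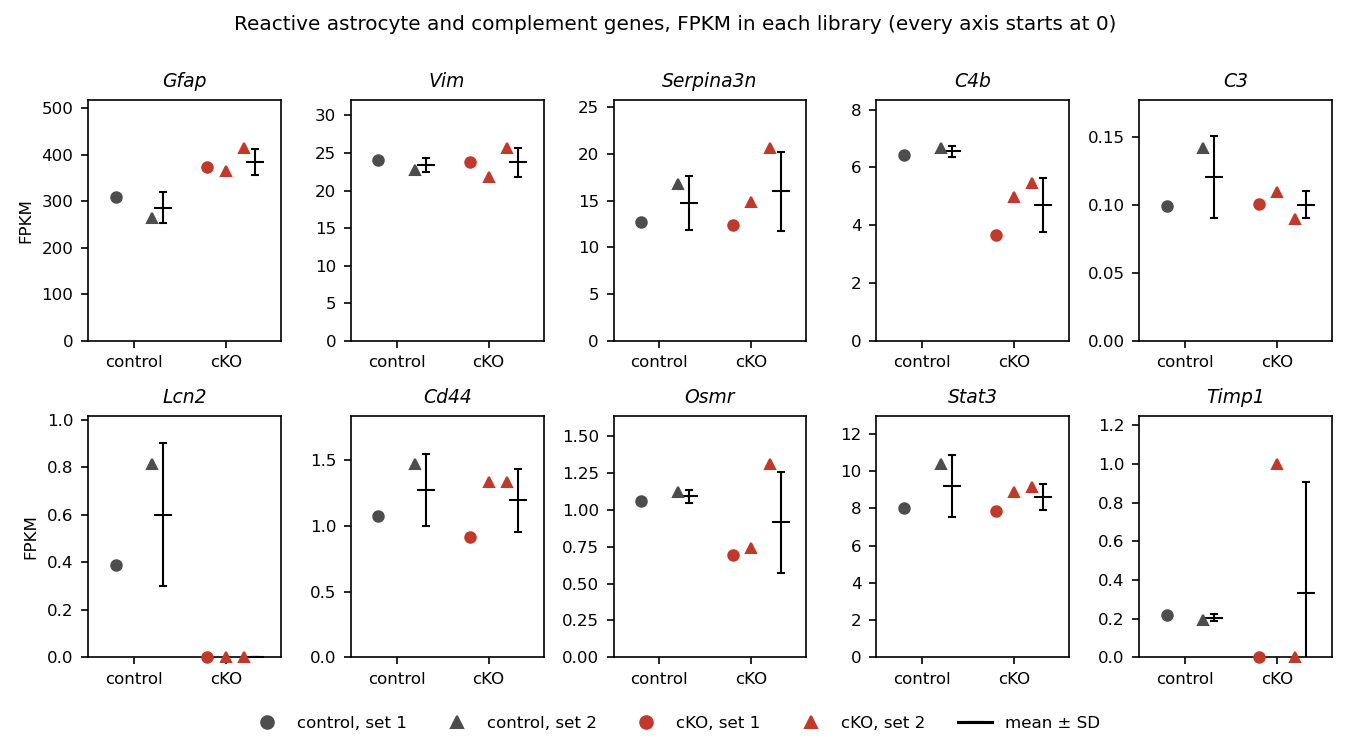
FPKM of each of the 10 members (one panel per gene, y axis in FPKM from 0) in the 2 control and 3 cKO libraries, with circles for set 1, triangles for set 2 and black bars for the mean ± SD of each group (the lower bar of *Timp1* runs below 0 and is not drawn in full). The cKO points of *Gfap* sit between 364 and 415 FPKM, above the controls at 263 and 309, and the cKO points of *C4b* sit between 3.65 and 5.47 FPKM, below the controls at 6.42 and 6.68.

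The intermediate filament genes came first. *Gfap* (chr11:102748650-102762226, minus strand), the main filament protein of mature astrocytes, stood at 309 and 263 FPKM in controls 1 and 2. In cKO libraries 1, 2 and 3 it stood at 374, 364 and 415 FPKM. The lowest cKO library lay above the highest control, and the group means were 286 ± 32.7 FPKM (SD, n = 2) and 384 ± 26.9 FPKM (SD, n = 3), a ratio of 1.34. The difference was 0.27 within set 1 and 0.56 within set 2 on the log2 scale. Over the alternative settings it ranged from 0.31 to 0.54. *Gfap* was by far the most abundant member, and these values rest on about 4598 to 6928 fragments per library.

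*Vim* (chr2:13495554-13504453, plus strand) encodes vimentin, which polymerises with GFAP in immature and reactive astrocytes and is also made by endothelial and meningeal cells. It was at 24.0 and 22.8 FPKM in controls and at 23.8, 21.7 and 25.7 FPKM in cKO libraries. The groups overlapped, with means of 23.4 ± 0.884 and 23.7 ± 1.97 FPKM. Their difference of 0.02 ± 0.09 on the log2 scale was -0.02 in set 1 and 0.05 in set 2. It turned to -0.05 when libraries were scaled to a common total, to -0.02 without control 2 and to -0.04 without cKO 3.

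*Serpina3n* (chr12:105644939-105652539, plus strand) encodes a secreted serine protease inhibitor, and in the mouse brain it is among the genes most strongly induced in reactive astrocytes. Its level was 12.7 and 16.7 FPKM in controls and 12.4, 14.8 and 20.6 FPKM in cKO libraries. The highest and the lowest of the 5 values were both cKO libraries. The difference of 0.10 ± 0.30 became -0.09 without control 1 and -0.09 without cKO 3, but 0.28 without control 2 and 0.25 without cKO 1. It was -0.03 in set 1 and 0.06 in set 2. The spread of *Serpina3n* within each group was thus wider than the gap between the groups, and a standard error of 0.30 leaves room for a difference of the size seen in *Gfap*. The neighbouring *Serpina3* genes share sequence with it, at 80.5% identity with *Serpina3i* over 1974 nt as the longest match. Of these genes *Serpina3g* was highest, at 0.952 and 0.608 FPKM in controls and 0.683, 0.489 and 0.720 FPKM in cKO libraries. *Serpina3a*, *Serpina3f*, *Serpina3j*, *Serpina3k* and *Serpina3m* were at 0 in all 5 libraries, *Serpina3b* and *Serpina3i* were above 0 in 1 library each, and *Serpina3c* and *Serpina3h* stayed at or under 0.292 FPKM. Fragments assigned to these copies were therefore few beside those of *Serpina3n*.

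The complement members were *C4b* and *C3*. Complement is a cascade of plasma and tissue proteins in which C1q starts the classical pathway, C4 and C2 form its convertase, and C3 is the component on which all pathways meet. *C4b* (chr17:34865325-34880827, minus strand) stood at 6.42 and 6.68 FPKM in controls and at 3.65, 4.98 and 5.47 FPKM in cKO libraries. The groups did not overlap, and the cKO mean of 4.70 ± 0.940 FPKM (SD, n = 3) was 0.718 of the control mean of 6.55 ± 0.180 FPKM (SD, n = 2). The difference was -0.67 within set 1 and -0.30 within set 2. It ranged from -0.52 to -0.28 over the alternative settings, the latter without cKO 1, the library with the lowest level. The direction of *C4b* was opposite to that of *Gfap* in both sets.

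*C4b* has a near-identical neighbour, *C4a* (chr17:34946037-34960409, minus strand), annotated as a processed transcript. Their longest transcripts were 96.1% identical over 5367 aligned nt, with 207 mismatches and one stretch of 433 nt without any, so that short fragments from either gene may have been divided between them. The 60-nt stretch of the *C4b* coding sequence that tells the 2 transcripts apart best is shown 5′ to 3′, with its 13 mismatched bases in capitals; it spans nt 2761 to 2820 of the *C4b* transcript and nt 2755 to 2814 of the *C4a* transcript.

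C4b: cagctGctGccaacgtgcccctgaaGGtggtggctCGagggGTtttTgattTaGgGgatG

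C4a: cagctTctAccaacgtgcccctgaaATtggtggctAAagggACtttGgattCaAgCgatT

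*C4a* was listed at 0.139 and 0.0544 FPKM in controls and at 0.0278, 0.140 and 0.143 FPKM in cKO libraries. Summing both genes gave 6.56 and 6.73 FPKM in controls and 3.68, 5.12 and 5.61 FPKM in cKO libraries. The sum kept the order of *C4b* alone, with no overlap between the groups.

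*C3* (chr17:57343397-57367559, minus strand) was near the limit of detection, at 0.0993 and 0.142 FPKM in controls and 0.101, 0.110 and 0.0899 FPKM in cKO libraries. These levels correspond to about 3 to 5 fragments per library. All 3 cKO values lay within or just below the control range, and no difference was detectable at this depth. Its difference of -0.03 was 0.0013 without control 2.

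**Figure D2:**
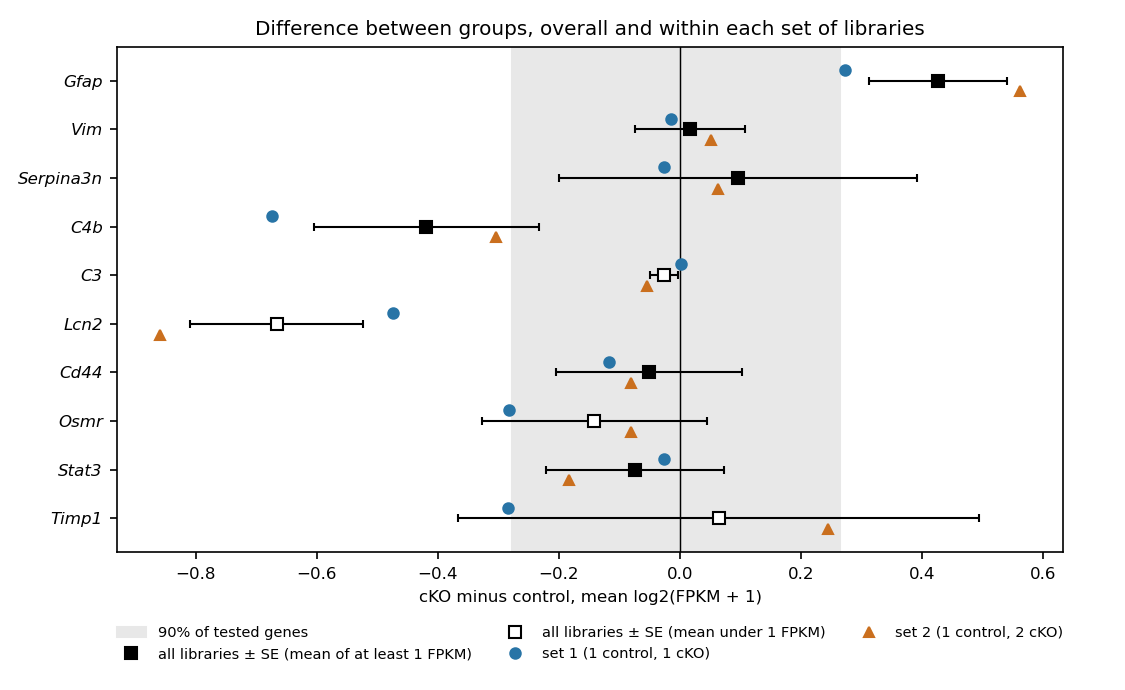
Difference between cKO and control in mean log2(FPKM + 1) for each member (x axis), with squares and bars for all 5 libraries ± SE (open squares for genes with a mean under 1 FPKM), circles for set 1, triangles for set 2, and a grey band for the central 90% of tested genes. *Gfap* at 0.43, *C4b* at -0.42 and *Lcn2* at -0.67 lie outside the band of -0.28 to 0.26, and the other 7 members lie inside it.

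The cytokine receptor, its transcription factor and the secreted or surface proteins made up the remaining members. *Osmr* (chr15:6763577-6824313, minus strand) encodes the oncostatin M receptor subunit that pairs with gp130. It was at 1.06 and 1.12 FPKM in controls and at 0.692, 0.741 and 1.31 FPKM in cKO libraries. Both extremes of *Osmr* were cKO libraries. Its difference was -0.14 ± 0.19, or -0.28 in set 1 and -0.08 in set 2. It became -0.06 without cKO 1, -0.08 without cKO 2 and -0.28 without cKO 3.

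*Stat3* (chr11:100746412-100800854, minus strand) encodes the transcription factor that carries gp130 signals to the nucleus. It was at 8.02 and 10.4 FPKM in controls and at 7.86, 8.86 and 9.18 FPKM in cKO libraries. The groups overlapped, and the difference of -0.07 ± 0.15 became -0.24 without control 1 and 0.09 without control 2. *Stat3* shares 72 of its 9527 exonic nt with *Stat5a* on the opposite strand, and whether counting used the strand is not stated in the sources used here. STAT3 activity depends on phosphorylation, which RNA levels do not measure.

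*Cd44* (chr2:102651298-102741822, minus strand) encodes a surface receptor for hyaluronan. It was at 1.08 and 1.47 FPKM in controls and at 0.915, 1.33 and 1.33 FPKM in cKO libraries. The groups overlapped, and the difference of -0.05 ± 0.15 became -0.18 without control 1, 0.07 without control 2 and 0.04 without cKO 1.

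*Lcn2* (chr2:32240153-32243317, minus strand) encodes lipocalin-2, a secreted iron carrier that reactive astrocytes and neutrophils make in inflammation. It was at 0.389 and 0.813 FPKM in controls and was listed at 0 in cKO 1, 2 and 3. The control values correspond to about 3.58 and 7.37 fragments, so the contrast rests on few reads. No fold change is given against a group at 0, and the difference on the log2 scale follows the constant added before the log, at -0.67 with 1 and -2.74 with 0.1. The summed level of 5 neutrophil markers was 1.33 and 3.09 FPKM in controls and 1.78, 1.10 and 0.187 FPKM in cKO libraries, and its part in the *Lcn2* values was not tested.

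*Timp1* (chrX:20447292-20451861, plus strand) encodes a secreted inhibitor of matrix metalloproteinases. It was at 0.218 and 0.193 FPKM in controls and at 0, 0.999 and 0 FPKM in cKO libraries 1, 2 and 3. Among the cKO libraries only cKO 2 was above 0, with about 4.5 fragments, and both controls held about 1 fragment. The difference of 0.06 ± 0.43 was -0.27 without that library and -0.46 with a constant of 0.1. The same library, cKO 2, had the highest summed level of choroid plexus markers, at 606 FPKM against 6.72 to 168 FPKM in the other 4 libraries. Most of that sum was *Ttr*, at 589 FPKM in cKO 2 and 1.33 to 157 FPKM in the other 4 libraries. The part of these markers in the *Timp1* value of cKO 2 was not tested.

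Across all 10 members the median difference was -0.04, beside 0.01 over the 12740 genes tested, with 4 members above 0 and 6 below. The sign was the same in both sets of libraries for 6 members, of which *Gfap* alone was higher. A mean of at least 1 FPKM was required for testing, and 6 members met it. *Cd44*, with a mean of 1.22 FPKM, was just above this limit and *Osmr*, at 0.984 FPKM, just below. The study called a gene with a fold change of at least 1.5 and a p under 0.05, without saying whether that p was adjusted. With the fold taken on the log2(FPKM + 1) scale and an unadjusted p, 0 of the 6 were called by this threshold, beside 0.400% of all tested genes higher (51 genes) and 0.259% lower (33 genes). At an adjusted p under 0.05 limma called 0 of the 6, beside 0.00785% of tested genes, which is 1 gene, the small nucleolar RNA *Snora30*. At an unadjusted p under 0.05 stood 2 of the 6, *Gfap* and *C4b*, beside 4.36% of tested genes. Each cKO library lay above both controls for 1 of the 6 and for 11.0% of tested genes, and below both controls for 1 of the 6 and for 9.41% of tested genes. Because the set was chosen from this contrast, nothing is read from these counts.

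The genes whose pattern over the 5 libraries was most like that of *Gfap* were *Fat1*, *Snhg6*, *Prdx4*, *Txndc12* and *Pinx1*, by the root mean square difference of centred log2(FPKM + 1) among the 8813 genes that averaged 5 FPKM or more once short RNA and predicted gene symbols were left out. The differences ran from 0.0576 for *Fat1* to 0.0649 for *Pinx1*. *Fat1*, a gene for an atypical cadherin, was at 5.69 and 5.11 FPKM in controls and 7.42, 6.57 and 7.79 FPKM in cKO libraries. None of these 5 genes is a member or an astrocyte marker listed here. Among the members, *Vim* came 1711th in likeness (0.208), *Serpina3n* 6761st (0.304), *Stat3* 7006th (0.310) and *C4b* 8661st (0.444). The measure is a description over 5 libraries in 2 sets. It is not scaled to the spread of each gene, so a nearly flat gene such as *Vim* (difference 0.02) can rank ahead of genes that vary more. The rank of *Vim* does not stand for a pattern shared with *Gfap*.

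Other genes of the same pathways came from 7 lists with 128 genes in all, of which 59 reached the limit for testing. Of these 59, 0 were called by the study's threshold on the log2(FPKM + 1) scale and 0 by adjusted p in limma (smallest 0.955), although *Mmp14* had an FPKM ratio above 1.5 and an unadjusted p under 0.05. At an unadjusted p under 0.05 there were 5, with *S100a10*, *Mmp14* and *Hyal2* higher and *Cntfr* and *Timp2* lower, beside 4.36% of all tested genes. That share is 555 genes, which became 1190 with the set of libraries as a block. Every cKO library was above both controls for 5 of the 59 and below both for 7, beside 11.0% and 9.41% of tested genes. Over the 59 genes 30 differences were above 0 and 29 below, with a median of 0.02. Among 8 other pan-reactive genes, 5 were tested (4 above 0 and 1 below), with a median of 0.08. *Cp*, for the iron oxidase ceruloplasmin, was at 2.27 and 2.97 FPKM in controls and 2.48, 3.68 and 4.45 FPKM in cKO libraries, so that the groups overlapped. Among 12 A1 genes, 9 were tested, 3 above 0 and 6 below, with a median of -0.03. *Gbp2*, an interferon-induced GTPase of the A1 list, was at 1.31 and 1.97 FPKM in controls and 0.940, 1.19 and 1.30 FPKM in cKO libraries (difference -0.29, limma adjusted p = 0.955). That difference was -0.48 without control 1 and -0.11 without control 2. *Ggta1*, a glycosyltransferase gene of the same list, differed by -0.08 without overlap. Among 12 A2 genes, 5 were tested, 4 above 0 and 1 below, with a median of 0.23 that was 0.46 in set 1 and 0.04 in set 2.

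*S100a10*, which encodes the annexin A2 partner p11 and stands in the A2 list, had the largest difference among the tested pathway genes on the log2(FPKM + 1) scale, whereas with a constant of 0.1 it was at 0.56 and *Mmp14* at 0.59. It was at 46.2 and 55.6 FPKM in controls and at 69.5, 82.8 and 72.1 FPKM in cKO libraries. Each cKO library was above both controls, at a ratio of 1.47. The difference was 0.55 ± 0.12 (limma SE, adjusted p = 0.955), with 0.58 in set 1 and 0.47 in set 2. Its adjusted p ranged from 0.0701 upward over the alternatives, and it passed the fold threshold without control 2 (0.68) and without cKO 1 (0.60).

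**Figure D3:**
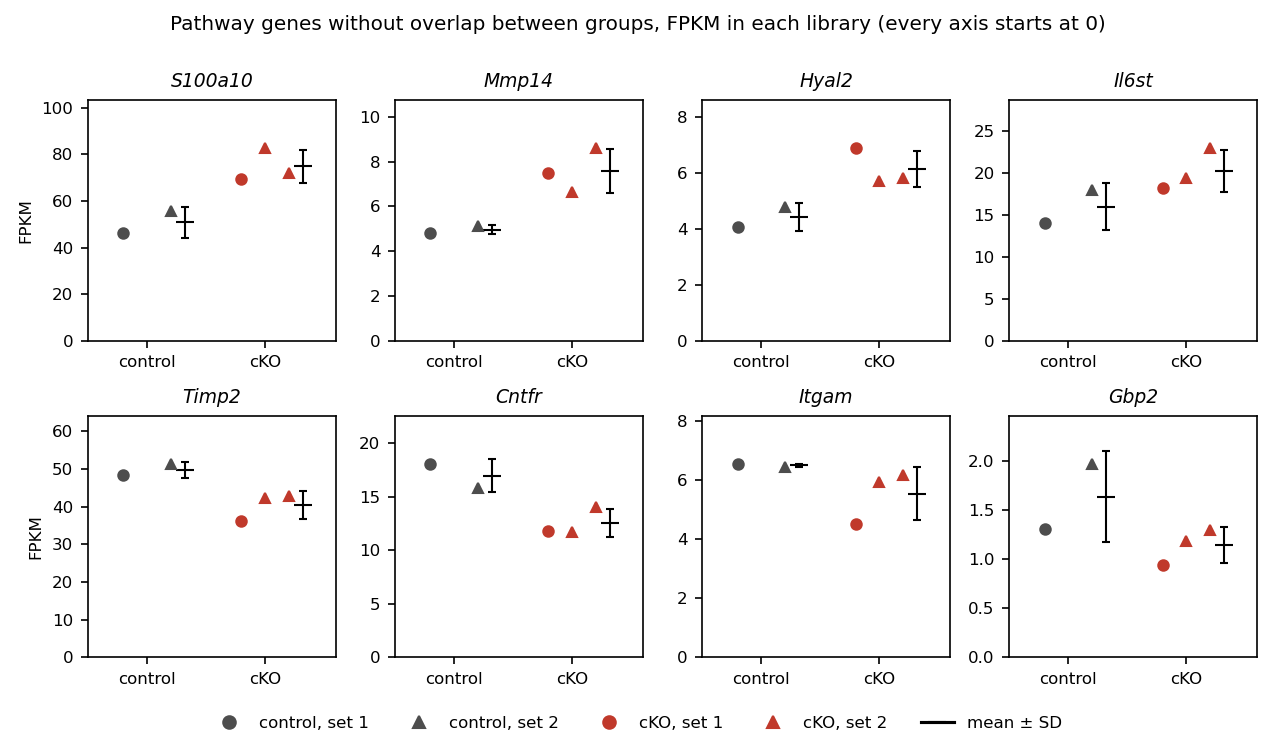
FPKM of 8 pathway genes that are not members (one panel per gene, y axis in FPKM from 0) in the control and cKO libraries, with circles for set 1, triangles for set 2 and black bars for the mean ± SD. The groups do not overlap for these 8, which are among 12 such genes of 59; *S100a10* reaches 69.5 to 82.8 FPKM in cKO libraries against 46.2 and 55.6 FPKM in controls, and *Cntfr* reaches 11.7 to 14.0 FPKM against 15.8 and 18.0 FPKM.

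The remainder of the complement list gave 13 tested genes of 40, with 7 above 0, 6 below and a median of 0.02, and 8 genes were at 0 in all libraries. The C1q chains, which microglia make, overlapped between the groups, with *C1qa* at 47.9 and 59.6 FPKM in controls and 48.5, 45.3 and 60.9 FPKM in cKO libraries. *Clu*, an abundant astrocyte gene for the complement inhibitor clusterin, was at 643 and 681 FPKM in controls and 627, 629 and 669 FPKM in cKO libraries. *Itgam*, the alpha chain of complement receptor 3 on microglia, was at 6.53 and 6.45 FPKM in controls and 4.51, 5.92 and 6.17 FPKM in cKO libraries. Its difference was -0.21 (limma adjusted p = 0.955), with the lowest level in cKO 1, as for *C4b*. Without cKO 1 it was -0.09. It was the 1 gene of 13 in this list without overlap, beside the 9.41% of all tested genes that lay below both controls.

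Genes around *Osmr* and *Stat3* gave 15 tested of 28, with 6 above 0, 9 below and a median of -0.0055. *Il6st*, for the shared receptor subunit gp130, was at 14.0 and 17.9 FPKM in controls and 18.2, 19.4 and 22.96 FPKM in cKO libraries (difference 0.32, limma adjusted p = 0.955). *Cntfr*, for the receptor chain that binds ciliary neurotrophic factor, was at 18.0 and 15.8 FPKM in controls and 11.8, 11.7 and 14.0 FPKM in cKO libraries (difference -0.41, limma adjusted p = 0.955). The difference of *Il6st* was 0.16 without control 1 and 0.49 without control 2, and that of *Cntfr* stayed between -0.50 and -0.32 over the alternatives. With the set of libraries as a block the unadjusted limma p of *Il6st* was 0.0234, against 0.0539 without it. *Stat5b*, for a related transcription factor, differed by -0.15 without overlap (limma adjusted p = 0.956). That difference was -0.07 without cKO 3 and -0.20 without cKO 1. *Socs3*, a direct target and feedback inhibitor of STAT3, was under the limit for testing, at 0.588 and 0.607 FPKM in controls and 0.443, 0.710 and 0.407 FPKM in cKO libraries. The cytokine genes *Il6* and *Clcf1* were at 0 in all libraries.

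Genes related to *Timp1* and *Cd44* gave 13 tested of 20, with 7 above 0, 6 below and a median of 0.04. *Mmp14*, for a membrane-bound metalloproteinase, was at 4.82 and 5.10 FPKM in controls and 7.47, 6.65 and 8.62 FPKM in cKO libraries. Its ratio was 1.53 in FPKM and its difference 0.52 on the log2(FPKM + 1) scale (limma adjusted p = 0.955). It passed the fold threshold with a constant of 0.1 (0.59) and without cKO 2, its lowest cKO library (0.60). *Hyal2*, for a hyaluronidase, was at 4.06 and 4.77 FPKM in controls and 6.90, 5.71 and 5.81 FPKM in cKO libraries (difference 0.40, limma adjusted p = 0.955). *Timp2*, a paralogue of *Timp1* with far higher expression, was at 48.3 and 51.3 FPKM in controls and 36.1, 42.2 and 42.8 FPKM in cKO libraries (difference -0.30, limma adjusted p = 0.955).

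**Figure D4:**
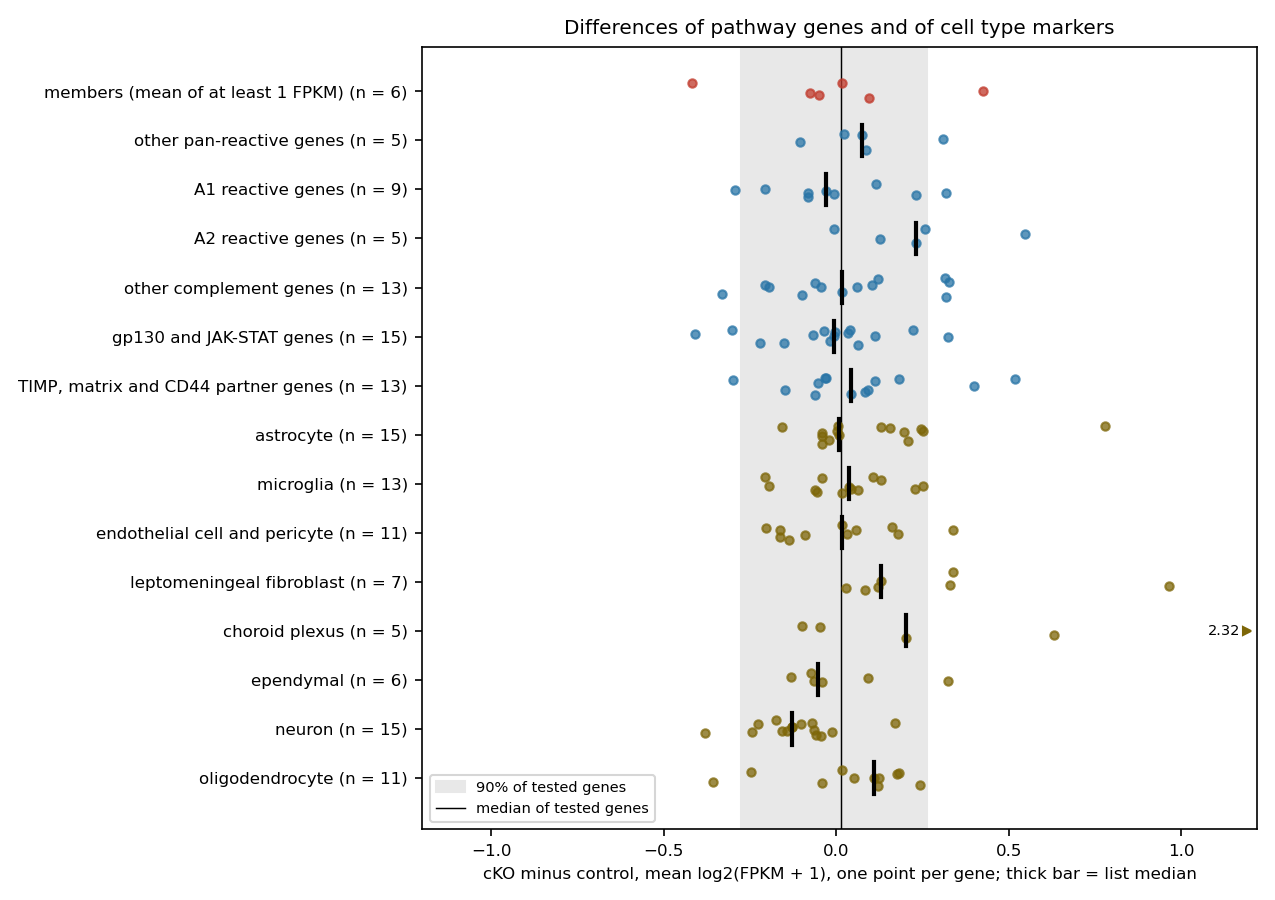
Difference between cKO and control in mean log2(FPKM + 1) (x axis) for each tested gene of the members (red), of the pathway lists (blue) and of the cell type markers (brown), with thick bars for the medians of the pathway and marker lists, a thin line for the median of all tested genes at 0.01 and a grey band for their central 90% (an arrow marks one choroid plexus gene beyond the axis). The pathway medians lie between -0.03 and 0.23, the astrocyte median is 0.01, and *Gfap* and *C4b* are the outermost red points.

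Markers of the astrocyte itself were set beside *Gfap*. All 15 were expressed and tested, none was at 0, and 10 were above 0 and 5 below with a median of 0.01. Their summed level was 4844 and 4745 FPKM in controls and 4930, 4965 and 5004 FPKM in cKO libraries, so every cKO library lay above both controls by a small margin. That order depended on scaling, since with libraries scaled to a common total cKO 1 fell below both controls. *Aqp4*, the water channel of astrocyte endfeet, was at 54.4 and 54.4 FPKM in controls and 89.4, 98.4 and 94.6 FPKM in cKO libraries, a difference of 0.78, and it was called by the study's threshold (limma adjusted p = 0.175). The glutamate transporter gene *Slc1a3* differed by 0.25 and the connexin 43 gene *Gja1* by 0.21, again with each cKO library above both controls (limma adjusted p = 0.955 for each). Together with *Slc1a2* (0.20), *Slc4a4* (0.16) and *S100b* (0.13), 6 of the 15 markers had every cKO library above both controls and 0 had every one below, beside 11.0% and 9.41% of tested genes. The other 9 overlapped between the groups and ran from 0.25 for *Slc39a12*, a zinc transporter gene, to -0.16 for *Atp1b2*, a sodium pump subunit gene. Among these, *Aldh1l1*, a pan-astrocyte enzyme gene, differed by -0.02 and *Glul*, for glutamine synthetase, by -0.04. In bulk tissue a changed number of cells of a type and a changed amount of RNA per cell cannot be told apart. By immunostaining of its young group, the study found no difference between cKO and control mice in astrocyte number, astrocyte size or GFAP intensity. It also reported no significant change in the abundance of neurons or microglia in that group. How those stainings relate to the RNA values of these libraries was not tested.

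**Figure D5:**
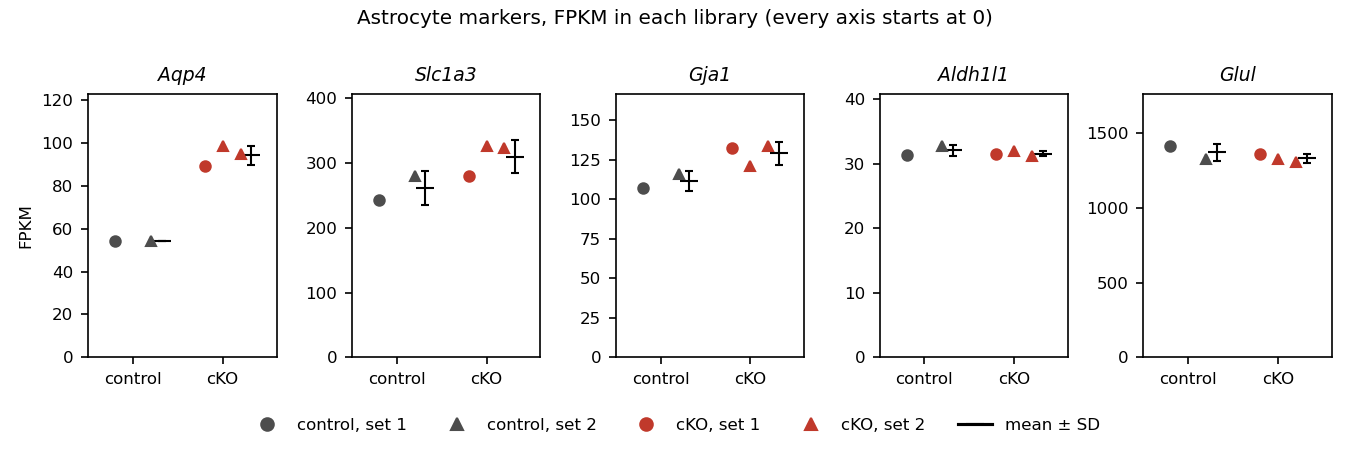
FPKM of 5 astrocyte markers (one panel per gene, y axis in FPKM from 0) in the control and cKO libraries, with circles for set 1, triangles for set 2 and black bars for the mean ± SD. *Aqp4* lies at 89.4 to 98.4 FPKM in cKO libraries against 54.4 FPKM in both controls, whereas the cKO values of *Aldh1l1* and *Glul* lie close to those of controls.

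Markers of other cell types that can express these members were summed in the same way. The 13 microglial markers, 8 above 0 and 5 below, summed to 327 and 391 FPKM in controls and 334, 348 and 398 FPKM in cKO libraries, with none at 0. The 11 endothelial and pericyte markers summed to 130 and 125 FPKM in controls and 111, 118 and 140 FPKM in cKO libraries. Of 10 leptomeningeal fibroblast markers 7 were tested and all 7 were above 0, with a median of 0.13 and with *Igf2* called by the study's threshold at 0.96 (limma adjusted p = 0.955). Their sum was 53.6 and 62.7 FPKM in controls and 66.0, 72.9 and 75.2 FPKM in cKO libraries, higher in each cKO library, as for *Gfap*. With libraries scaled to a common total, however, the sum of cKO 1 fell below that of control 2, so the groups overlapped. Of the 7 tested leptomeningeal markers 2 were higher without overlap. *Igf2* was at 7.53 and 4.41 FPKM in controls and 12.8, 9.40 and 15.2 FPKM in cKO libraries. *Dcn*, the most abundant marker of that list, overlapped, at 28.9 and 44.4 FPKM in controls and 33.7, 45.8 and 39.2 FPKM in cKO libraries. Among 15 neuronal markers 14 were below 0, with a median of -0.13, but their sum overlapped, at 2963 and 3190 FPKM in controls and 2942, 2787 and 3101 FPKM in cKO libraries. Among tested genes, the largest differences without overlap, beside *Igf2* and *Itgam*, were those of *Nefm* (-0.38), *Stmn2* (-0.24) and *Rbfox3* (-0.23) for neurons. In the other lists they were those of *Ogn* (0.34) for leptomeningeal cells, *Mal* (0.24) for oligodendrocytes and *Ly6c1* (-0.20) for endothelial cells. These single genes do not stand for their lists. Of 11 oligodendrocyte markers 8 were above 0 and 3 below, and of the 11 endothelial and pericyte markers 6 were above 0 and 5 below. The neuronal marker *Map2* (0.17) was higher without overlap. The leptomeningeal marker *Col3a1*, under the limit for testing, was also higher without overlap (0.47). The part of these differences in the values of *Gfap*, *C4b*, *Mmp14* and *S100a10* was not tested.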

How the data were processed

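Hippocampal RNA from 2 control and 3 *Hdac1* cKO libraries was measured by RNA-seq (Illumina TruSeq Total RNA kit). The deposited values are FPKM per gene, which the authors obtained with TopHat and Cufflinks 2.0.0 on mm9, and use of the strand is not given in the sources used here. FPKM are not counts, so limma 3.58.1 in R 4.3.3 (lmFit, eBayes with a mean-variance trend, two-sided, genotype only) was run on log2(FPKM + 1) for the 12740 genes averaging 1 FPKM or more, with Benjamini-Hochberg adjustment over all of them. The fit was tested on simulated data. Members and lists were chosen with earlier results of these data known. Errors of members are SE from the pooled SD of the 2 groups.

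Named genes were *Hdac1*, the members, in each list the called genes and up to 3 tested genes with the largest differences among those without overlap between groups, the *C4* and *Serpina3* paralogues, and the 5 genes most like *Gfap* (symbols starting with Mir, Snor, Scarna, LOC or Gm with a digit, or ending in Rik, left out). *Cp*, *C1qa*, *Clu*, *Socs3*, *Il6*, *Clcf1*, *Slc1a2*, *Slc4a4*, *Slc39a12*, *Atp1b2*, *S100b*, *Aldh1l1*, *Glul*, *Map2*, *Dcn*, *Ttr* and *Snora30* were added after their values were seen.

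Sets of libraries were found from genes under 0.3 FPKM, by the share of expression ratios in the fullest window of 0.05 log2 units (over 10% for one set). Fragments were estimated from the step of 1 fragment in genes with a single transcript of at least 1 kb, and from the longest annotated transcript for each member, and are approximate. Positions come from GENCODE vM1 on mm9, and transcripts were compared with BLAST 2.17.0 and Biopython 1.88. Alternatives were a constant of 0.1, no filter or a minimum of 5 FPKM, median-ratio, TPM or quantile scaling, no variance trend, a replicate block, a set block, other call thresholds and leaving out each library.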

Additional observations from a re-analysis of the deposited data

How the results depend on the processing

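By the fold threshold a member was called in one setting only: without a filter on low values *Lcn2*, at 0 in all cKO libraries, passed at -0.67. With about 3.58 and 7.37 fragments in the controls and a group at 0, nothing is read from that call. The median difference of the 10 members stayed between -0.13 and 0.03, and it was 0.03 without control 2. Of the members, *Vim*, *Serpina3n*, *C3*, *Cd44*, *Stat3* and *Timp1* changed sign in at least 1 of 14 alternative settings. Several of these settings leave every difference as it was, and the replicate block gives the same differences as leaving out cKO 3. The number of genes called by the study's threshold, 84, became 142 with a constant of 0.1, 43 with a minimum of 5 FPKM and 133 with the replicate block, and 1 gene passed at an adjusted p. Leaving out one library gave 92 (without cKO 2) to 231 (without control 2) called genes, with 152 without control 1 and 148 without cKO 1. Scaling to a common total gave 51 higher and 73 lower genes, against 51 and 33. Among the pathway genes, 0 were called, 1 with a constant of 0.1, 5 by an unadjusted p under 0.05 and 0 to 1 without one library (1 without control 2, without cKO 1 or without cKO 2). The causes were not tested. Replicate numbers are shared by 2 pairs of libraries, whose deviations from the group means correlated at 0.402 and 0.269 across genes. Control 2 with cKO 3 correlated at 0.151. These are the pairs that share a set of libraries. With 2 controls, however, the control deviations mirror each other, and those of the 3 cKO libraries depend on each other. The correlations are therefore not separate evidence for the sets. No label ties the numbers to a litter, batch or day. In the replicate block *Hdac1* had an adjusted limma p of 0.0115, *Gfap* differed by 0.37 and *C4b* by -0.52. Only cKO 3 carries replicate number 3, so it adds nothing to those differences, which equal the ones without cKO 3. An adjusted p under 0.05 was reached by 14 genes in that block, against 24 without a filter and 5 with the set block. With 2 controls, and a handful of fragments for *C3*, *Lcn2* and *Timp1*, depth and number of libraries limit what can be said of the low members.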
